A study of Mus musculus with 4 samples.

Results

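Cholesterol and its precursors are built from acetyl-CoA in one chain of enzymes, and 29 genes of that chain, of its regulators and of sterol transport were followed here in mouse testis without Fam170a. They were chosen by function, by symbol, out of 22274 genes in the deposited table. They comprise 8 enzymes from acetyl-CoA to the polyprenyl diphosphates, 11 enzymes from squalene towards cholesterol, 5 regulators and 5 genes of transport and storage. The symbol column matched 28 of the 29. Cyp51 stands there as Cyp51a1 and was found by its Ensembl identifier, and the symbol Acat2 stands on both Acat2 and its near-identical paralogue Acat3, of which Acat2 alone was taken as the member.

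Poly(A) RNA of whole adult testis was sequenced from Fam170a knockout mice (KO, 2 libraries) and wild-type mice (WT, 2 libraries), to ask what the gene does in spermiogenesis. The labels give neither the strain, nor an age beyond adult, nor the deleted part of the gene. They also do not say whether replicates are different mice, and the p-values therefore reflect a spread between samples that could be purely technical. KO replicate 2 carries the genotype label Fam171a Knockout where KO replicate 1 carries Fam170a Knockout. Total counts were 34740160 and 41684437 in KO and 26029374 and 35494303 in WT, and Fam170a itself had 1 count in each KO library against 2240 and 3510 in WT.

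The pathway joins acetyl-CoA units into mevalonate and then isoprenoid diphosphates, joins these into squalene, and closes and trims squalene into cholesterol. Most of its genes are switched on by SREBP transcription factors, which Scap carries out of the endoplasmic reticulum when sterol is scarce and Insig proteins hold back when it is plentiful. The testis is known for a germ cell version of this control: in rodents, spermatids transcribe Cyp51 under the cAMP-responsive activator CREM, germ cells make a short form of SREBP-2, and the sterol that Cyp51 makes from lanosterol is known as a meiosis-activating sterol. Leydig cells use cholesterol for testosterone.

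None of the 29 members passed the edgeR test between genotypes, and the chain had a steep and very similar profile in all 4 libraries. With edgeR's quasi-likelihood test, adjusted over all 15636 tested genes, 0 of 29 members were called at an adjusted p under 0.05, where 0.908% of all tested genes were (0.454% in each direction). The smallest adjusted p among members was 0.112, for Fdft1. At an unadjusted p under 0.05 there were 6 members, 3 with a positive and 3 with a negative fold change, beside 24.6% of all tested genes (11.8% with a positive and 12.8% with a negative one), so the share was close to that background. DESeq2 called 1 member, Abca1, where it called 7.97% of the genes to which it gave an adjusted p, and limma-voom called 0 beside 0.895%. All 29 members passed the filter on low counts.

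The order of transcript levels along the chain was the same at its top in both genotypes. Levels between genes are compared here as CPM (counts divided by the scaled size of the library) divided by the kilobases of annotated exon. Fdft1, the squalene synthase that commits isoprenoid diphosphates to sterols, led with 175 CPM per kb in KO and 143 in WT (means, n = 2 each). The squalene epoxidase Sqle, with 34.3 in KO and 32.0 in WT, the lanosterol demethylase Cyp51, with 30.9 in KO and 24.6 in WT, and the isopentenyl diphosphate isomerase Idi1, with 23.6 in KO and 23.0 in WT, came next, in that order in KO. In WT the order was the same, and it also was with the length of the longest coding transcript in place of all exons. The regulator Insig2 came at rank 5 in both genotypes, and at rank 6 in WT by the longest transcript.

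The enzymes that follow Cyp51 were far lower. Tm7sf2, a sterol reductase acting on the product of Cyp51, averaged 0.0957 CPM per kb in KO and 0.121 in WT, the lowest of all members in both genotypes. Ebp, the isomerase that shifts a ring double bond, had 0.181 in KO and 0.324 in WT, Msmo1, the methyl oxidase, 0.371 in KO and 0.394 in WT, and Hsd17b7, a ketoreductase of the same demethylation steps, 0.378 in KO and 0.381 in WT. Summed over the 7 listed enzymes after Cyp51, the level was 4.46 and 4.76 CPM per kb in the KO libraries and 5.15 and 4.84 in the WT libraries. Those 7 made up 1.52% and 1.61% of the summed level of the 19 enzymes in KO, and 1.97% and 1.93% in WT. The sums do not overlap, but Cyp51 alone stood above the 7 together in every library, by 7.21 and 6.22 times in KO and 4.94 and 4.90 times in WT. This contrast within the chain was larger than the fold change of any member between genotypes.

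**Figure D1:**
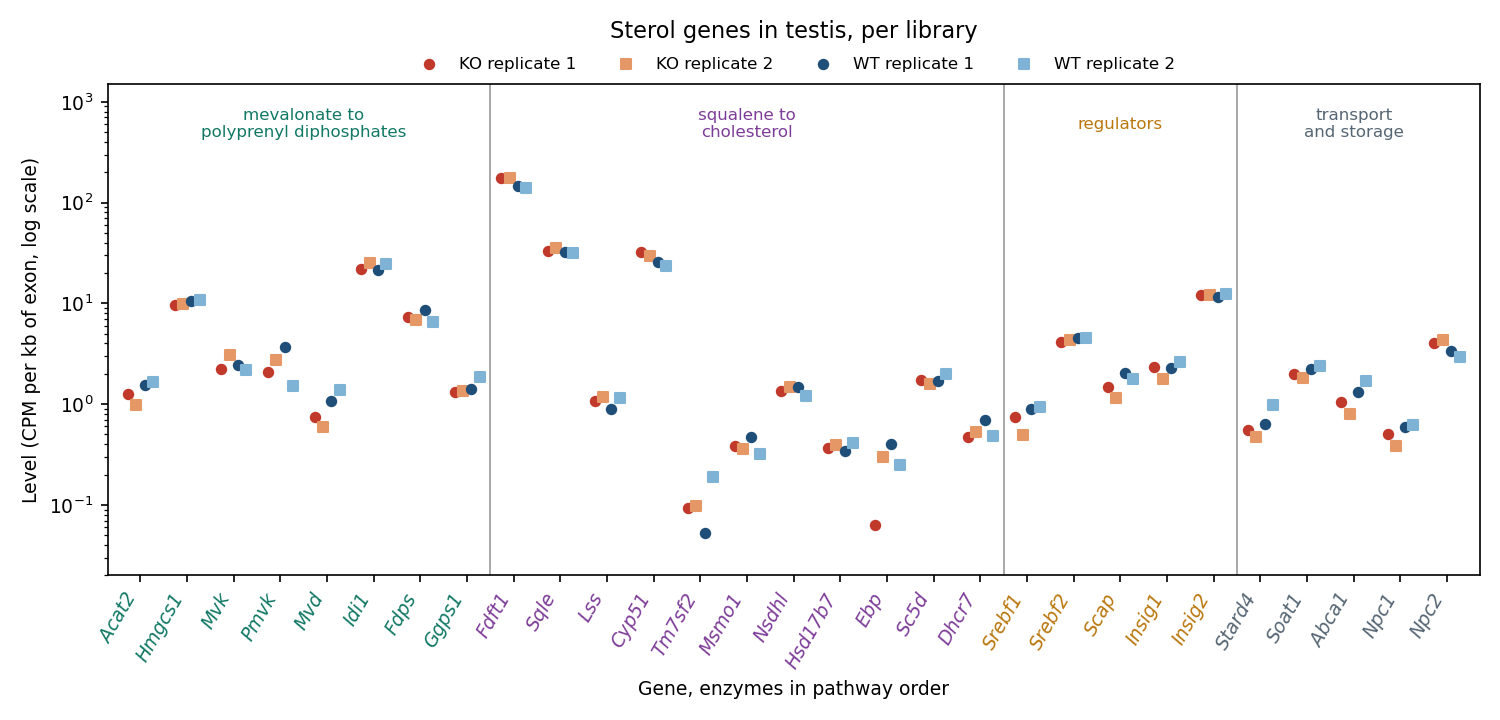
Level of each of the 29 sterol genes in every library, in CPM per kilobase of annotated exon on a log scale, with enzymes in pathway order and KO left of WT for each gene. Fdft1 (175 in KO and 143 in WT on average) and Tm7sf2 (0.0957 in KO and 0.121 in WT) mark the ends of the range, and the 4 points of most genes lie close together.

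The promoters of Cyp51 and Idi1, among the highest enzymes, of Hmgcs1, a typical sterol-controlled enzyme, and of Npc2, the transport gene at higher values in KO, are shown so that known control motifs can be seen beside the levels. RefSeq windows (GRCm38.p6) of 250 bases before to 50 after the annotated start were taken by symbol for 24 of the 29 members. Capitals mark every match, on either strand, to the sterol regulatory element TCACNCCAC, to the CREB and CREM site TGACGTCA or its core TGACGT, and to the CCAAT box (ATTGG on the other strand), which binds NF-Y, a factor known to act with SREBPs. The windows are on chromosome 5 at chr5:4104648-4104947 for Cyp51 (reverse strand), on chromosome 13 at chr13:8885356-8885655 for Idi1 (forward) and chr13:119690101-119690400 for Hmgcs1 (forward), and on chromosome 12 at chr12:84773063-84773362 for Npc2 (reverse).
Cyp51: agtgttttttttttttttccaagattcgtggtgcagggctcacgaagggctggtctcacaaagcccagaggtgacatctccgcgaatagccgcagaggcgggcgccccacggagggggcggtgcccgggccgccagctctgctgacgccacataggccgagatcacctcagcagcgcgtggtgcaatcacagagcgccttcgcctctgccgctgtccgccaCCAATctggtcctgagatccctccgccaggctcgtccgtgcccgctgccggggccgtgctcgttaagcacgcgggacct
Idi1: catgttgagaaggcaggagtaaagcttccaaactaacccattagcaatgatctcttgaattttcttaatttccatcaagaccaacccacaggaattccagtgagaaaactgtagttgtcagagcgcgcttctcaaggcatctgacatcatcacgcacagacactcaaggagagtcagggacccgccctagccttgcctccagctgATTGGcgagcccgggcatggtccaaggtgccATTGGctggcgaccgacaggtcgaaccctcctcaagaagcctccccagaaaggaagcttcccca
Hmgcs1: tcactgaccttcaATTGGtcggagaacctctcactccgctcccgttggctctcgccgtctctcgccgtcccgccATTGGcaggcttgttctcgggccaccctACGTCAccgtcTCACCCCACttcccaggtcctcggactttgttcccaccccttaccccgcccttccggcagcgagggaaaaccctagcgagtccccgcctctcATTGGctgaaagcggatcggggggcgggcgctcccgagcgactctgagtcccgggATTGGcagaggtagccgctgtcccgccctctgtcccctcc
Npc2: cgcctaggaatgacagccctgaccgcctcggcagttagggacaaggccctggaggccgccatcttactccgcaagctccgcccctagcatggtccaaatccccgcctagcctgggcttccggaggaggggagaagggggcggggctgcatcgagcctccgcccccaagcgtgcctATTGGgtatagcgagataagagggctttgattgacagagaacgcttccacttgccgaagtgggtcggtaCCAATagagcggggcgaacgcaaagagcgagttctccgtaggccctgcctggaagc

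Fdft1 and Sqle, the members with the highest levels, and Fdps had no window under their symbols. Npc1 and Stard4 were left out of the motif search. Among the 24 members searched the CCAAT box was the motif most often found. At least 1 window of 21 of them held it, the exceptions being Abca1, Acat2 and Scap. Of the 12094 tested genes with a window 42.7% did. Counted by window, 22 of 32 member windows held it, beside 37.4% of all 32851 windows. Idi1 has 2 matches, at positions -45 and -14 from the start, and Cyp51 has 1, at -29. The sterol regulatory element was matched in 1 member, Hmgcs1, at position -137, beside 1.41% of the tested genes with a window. The core TGACGT was matched in Hmgcs1 and Insig1, 2 of the 24 genes, beside 11.8% of the tested genes, and the full site in no member beside 3.28%. Over all windows the shares were 1.24% for the sterol element, 7.51% for the core and 1.79% for the full site. None of these matches overlaps another in the windows shown, and a match in such a short string is a description, not a site in use. Only exact matches were marked, so stretches close to a motif, such as tgacgcca in the Cyp51 window, stay in lower case. The lack of a match therefore does not show that a promoter lacks such a site.

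The first 8 enzymes supply isoprenoids, and none of them passed the test. Hmgcs1, the cytosolic HMG-CoA synthase, had 44.5 and 45.2 CPM in the KO libraries and 48.8 and 49.8 in the WT libraries. Both KO values lay below both WT values by a narrow margin, with a log2 fold change of -0.14 ± 0.09 (SE; adjusted p = 0.380, edgeR). Idi1 had 77.6 and 87.9 CPM in KO and 75.6 and 85.9 in WT, so that the genotypes interleaved (log2 fold change 0.03, 95% interval -0.24 to 0.31, adjusted p = 0.880, edgeR). For Idi1, whose promoter window above holds 2 CCAAT matches, the interval leaves room for only a small change in either direction.

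Mvd, which encodes the decarboxylase that makes isopentenyl diphosphate, had the most negative fold change of the 29 in the edgeR fit, though Ebp, from few counts, was lower still with limma-voom (-1.05, against -0.91 for Mvd), without WT replicate 2 or KO replicate 2, and with the replicate number as a block, straight or crossed. Mvd had 1.40 and 1.10 CPM in KO and 1.997 and 2.59 in WT, from 48 and 43 counts in KO and 52 and 99 in WT. The values do not overlap, and KO over WT gave -0.89 ± 0.28 on the log2 scale (SE; adjusted p = 0.147, edgeR). Acat2, the cytosolic thiolase that opens the chain, had 3.24 and 2.48 CPM in KO and 3.96 and 4.26 in WT, also without overlap (log2 fold change -0.53 ± 0.22, adjusted p = 0.209, edgeR). Reads of Acat2 may be shared with Acat3, which had 12 to 13 counts per KO library and 12 to 26 per WT library.

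The other 4 genes of this stretch differed by less than or about as much as their replicates. Ggps1, the branch enzyme that makes geranylgeranyl diphosphate for protein prenylation, had 6.19 and 6.43 CPM in KO and 6.68 and 8.87 in WT. Farnesyl diphosphate synthase, from Fdps, had 30.5 and 28.9 CPM in KO and 36.1 and 27.2 in WT. The mevalonate kinase gene Mvk had 5.95 and 8.27 CPM in KO and 6.53 and 5.83 in WT. KO and WT overlap for Fdps and Mvk and are narrowly set apart for Ggps1, with log2 fold changes of -0.09, 0.21 and -0.31 for Fdps, Mvk and Ggps1. Pmvk, the phosphomevalonate kinase, had 3.53 and 4.70 CPM in KO and 6.34 and 2.62 in WT, a wider gap between WT replicates than between genotypes.

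The squalene to cholesterol stretch held the most abundant sterol transcripts, with Fdft1 and Cyp51 at the larger values in KO. Fdft1 (ENSMUSG00000021273, reverse strand of chromosome 14, 63145150 to 63179578 in GRCm38 by GENCODE M21) had 745 and 736 CPM in KO and 618 and 588 in WT. All KO values exceeded all WT values, by more than the gap between replicates, and the mean was 740 ± 5.98 CPM in KO and 603 ± 21.1 in WT (SD, n = 2 each). The log2 fold change was 0.30 ± 0.08 (SE), with a 95% interval of 0.11 to 0.48 and an edgeR-adjusted p of 0.112, so the difference did not pass. Fdft1 shares 774 of its 4227 exonic bases with Ctsb on the opposite strand, and no source used here says whether reads were counted by strand. Ctsb was at 9.41 CPM in KO and 7.16 in WT, small beside Fdft1. Fdps, Ggps1, Tm7sf2, Srebf1 and Npc1 likewise share 1.93% to 26.7% of their exonic bases with another coding gene.

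Cyp51 (ENSMUSG00000001467, reverse strand of chromosome 5, 4081145 to 4104746 in GRCm38) had 142 and 131 CPM in KO and 112 and 105 in WT. The groups do not overlap, and KO over WT gave 0.33 ± 0.09 on the log2 scale (SE; 95% interval 0.11 to 0.55, adjusted p = 0.119, edgeR). Its opposite-strand neighbour Akap9, which shares 166 of the 4415 exonic bases of Cyp51, was itself at 168 CPM in KO and 142 in WT, a log2 fold change of 0.24. Sqle had 183 and 197 CPM in KO and 180 and 175 in WT, a log2 fold change of 0.10 ± 0.08 (SE; 95% interval -0.10 to 0.30). For Fdft1, Cyp51 and Sqle the KO values were the higher ones, except that Sqle came to -0.01 on the log2 scale with scaling by total counts. For Sqle the difference in means was smaller than the gap between the KO libraries.

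Lss, which closes squalene epoxide into lanosterol and stands between Sqle and Cyp51, was much lower than either. It had 11.7 and 12.7 CPM in KO and 9.60 and 12.3 in WT, with overlap (log2 fold change 0.15, adjusted p = 0.612, edgeR). The 7 later enzymes all overlapped between genotypes. Sc5d, the sterol desaturase, was the best expressed of them at 8.46 and 7.71 CPM in KO and 8.34 and 9.71 in WT, and Nsdhl, the X-linked sterol decarboxylating dehydrogenase, had 3.85 and 4.26 CPM in KO and 4.23 and 3.40 in WT. Dhcr7, a reductase at the end of the chain, had 2.74 and 3.09 CPM in KO and 4.03 and 2.80 in WT. Ebp and Tm7sf2 rested on few counts, 5 and 27 in KO against 24 and 22 in WT for Ebp and 14 and 17 in KO against 6 and 32 in WT for Tm7sf2, and their 95% intervals of -2.51 to 0.94 and -1.94 to 1.14 show that a change of several fold was not detectable at this depth.

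**Figure D2:**
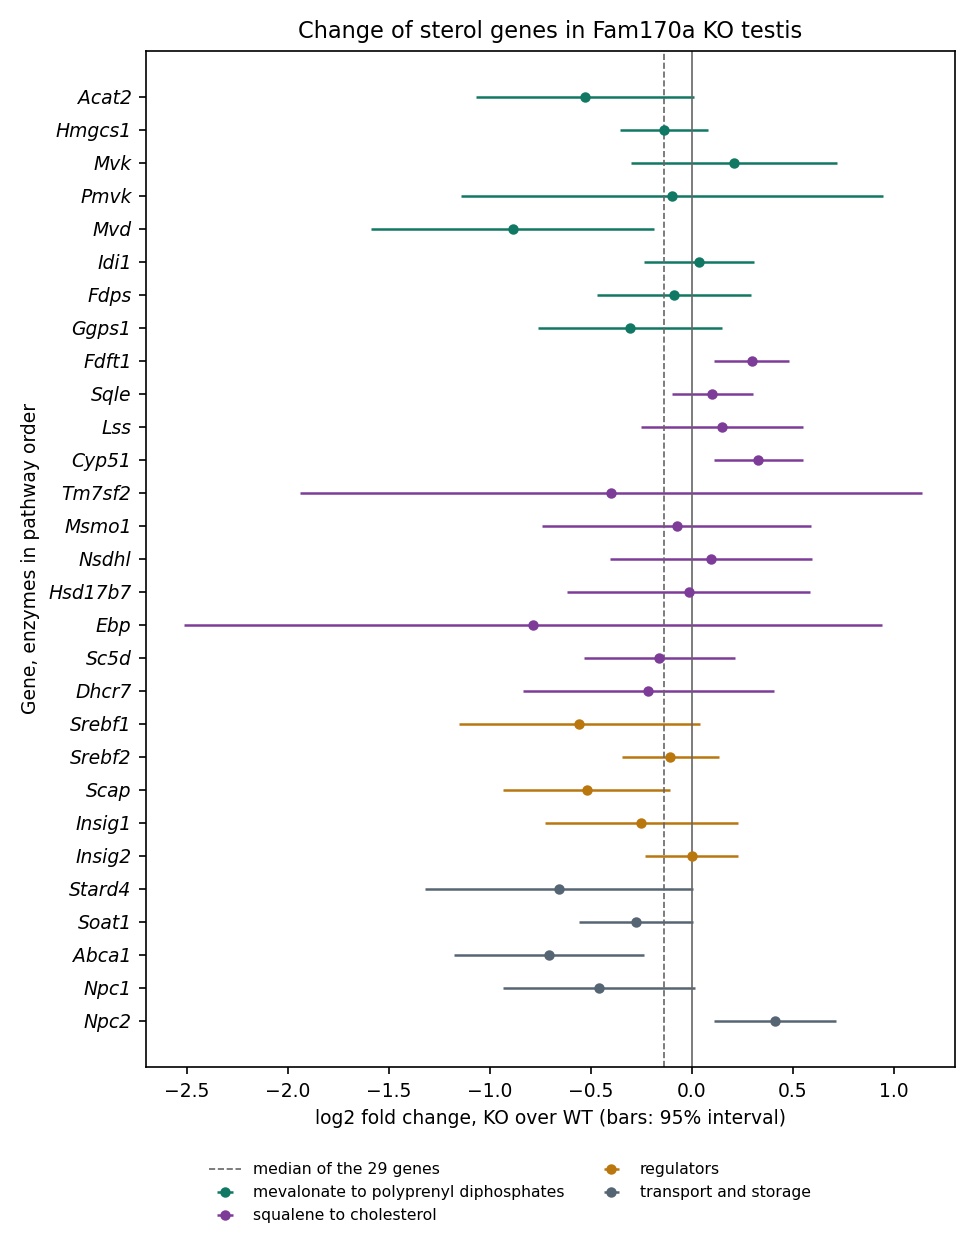
Log2 fold change of KO over WT for each of the 29 sterol genes, with its 95% interval from the edgeR fit, from the first enzyme at the top to the transport genes at the bottom. The dashed line is the median of the 29 genes (-0.14), and Fdft1, Cyp51, Npc2, Mvd, Scap and Abca1 are the genes whose interval leaves out 0 before adjustment over all genes.

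Of the 5 regulators 4 had negative fold changes and Insig2 one near 0 whose sign differed between settings, and none passed. Srebf2, the gene for the SREBP that drives sterol synthesis, had 29.5 and 31.1 CPM in KO and 32.6 and 32.7 in WT (log2 fold change -0.11, 95% interval -0.35 to 0.13). Insig2, which retains the Scap and SREBP complex, had 41.8 and 41.7 CPM in KO and 40.6 and 43.1 in WT, a log2 fold change of just under 0 with an interval of -0.23 to 0.23. These are the best measured regulators, and their intervals leave room for only small differences. Whether the counts include the short germ cell form of Srebf2 cannot be read from totals per gene.

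Scap, the sterol-sensing escort of SREBPs, had 11.0 and 8.63 CPM in KO and 15.02 and 13.2 in WT. The genotypes do not overlap, at a log2 fold change of -0.52 ± 0.17 (SE; adjusted p = 0.147, edgeR). Srebf1, whose SREBP acts mostly on fatty acid synthesis, had 4.23 and 2.81 CPM in KO and 5.07 and 5.26 in WT (log2 fold change -0.56 ± 0.24, adjusted p = 0.222, edgeR). Insig1, itself a target of SREBPs, overlapped at 7.29 and 5.46 CPM in KO and 7.11 and 8.03 in WT. Summed over the 5 regulators, levels were 93.8 and 89.8 CPM in KO and 100.3 and 102 in WT.

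None of the 5 genes of transport and storage passed the test. Both KO libraries lay below both WT libraries for 4 of them, as for 27.9% of all tested genes, and above for 1, as for 29.4%. Abca1, the membrane transporter that exports cholesterol to apolipoproteins (ENSMUSG00000015243, reverse strand of chromosome 4, 53030787 to 53159895 in GRCm38), had 10.8 and 8.32 CPM in KO and 13.6 and 17.4 in WT. Both KO values lay below both WT values, and KO over WT gave -0.71 ± 0.19 on the log2 scale (SE; 95% interval -1.18 to -0.24, adjusted p = 0.119, edgeR). With DESeq2 its adjusted p was 0.0401, and with edgeR and 1 library left out the adjusted p ran between 0.00411 and 0.566. Npc2, the soluble lysosomal protein that binds cholesterol and hands it on, had its higher values in KO without passing, with 22.1 and 23.5 CPM in KO and 18.4 and 16.0 in WT (log2 fold change 0.41 ± 0.12, adjusted p = 0.133, edgeR).

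Npc1, the membrane partner that receives cholesterol from Npc2, had 5.72 and 4.31 CPM in KO and 6.72 and 7.04 in WT (log2 fold change -0.46 ± 0.19, adjusted p = 0.213, edgeR). The paired proteins of lysosomal export thus had fold changes of opposite sign, a difference between the genes that was not tested. Soat1, the enzyme that esterifies cholesterol for storage, had 19.7 and 17.9 CPM in KO and 22.05 and 23.5 in WT, with a log2 fold change of -0.28 ± 0.11. Stard4, a cytosolic sterol carrier, had 3.12 and 2.65 CPM in KO and 3.53 and 5.49 in WT, with a log2 fold change of -0.66 ± 0.27. For Stard4 the gap between the WT libraries was about as wide as that between genotypes.

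Taking the 29 genes as a whole, 21 fold changes were negative and 8 positive around a median of -0.14, beside a median of 0.01 and 50.8% positive over all tested genes. With total counts in place of TMM factors, which moved the median of all tested genes to -0.10, 24 were negative and 5 positive. The genotypes did not overlap in 15 members, beside 57.3% of all tested genes. In 11 of them both KO libraries lay below both WT libraries, beside 27.9%, and in 4 both lay above, beside 29.4%. The negative values were mostly those of weakly expressed genes. Of the 16 members with a mean under 10 CPM, 14 were negative and 2 positive (median -0.28). Over all tested genes at such levels 41.8% were positive, with a median of -0.11. Of the 13 members at 10 CPM or more, 6 were positive and 7 negative, with a median of just under 0. Over all tested genes of that range 59.9% were positive, with a median of 0.06. The level of 10 CPM was chosen after the values were seen. Across the 29 genes, Spearman's rho of fold change with level was 0.53, beside 0.17 across all tested genes, as a description of genes that share the same 4 libraries.

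**Figure D3:**
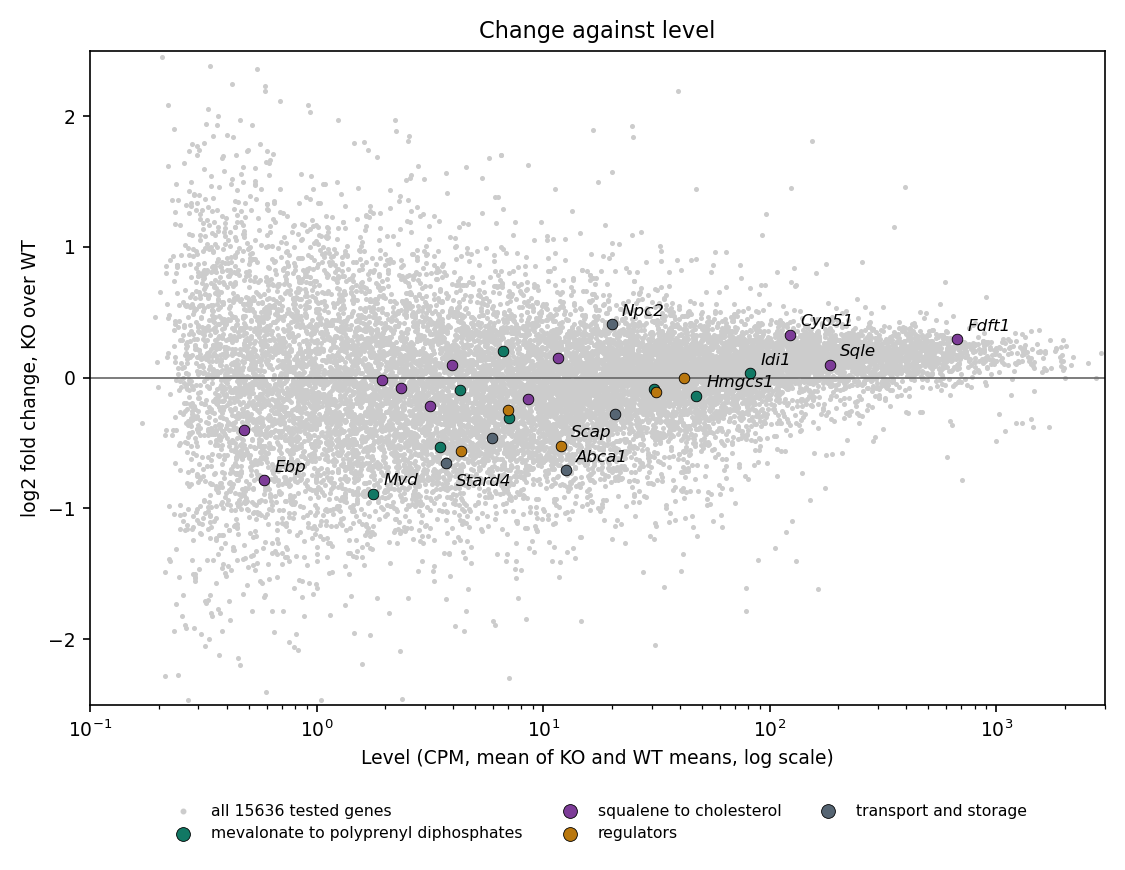
Log2 fold change of KO over WT against level, the mean of the KO and WT means in CPM on a log scale, for the 29 sterol genes by role (large points) over all tested genes (grey). The weakly expressed members lie mostly below 0, while Fdft1, Cyp51 and Sqle lie above it at the right (Sqle at -0.01 with scaling by total counts). The axes leave out 45 of the grey points.

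Levels of cell type markers differed between the libraries as well. Of 9 round spermatid markers, 8 had both KO libraries above both WT libraries, beside 29.4% of all tested genes. At 10 CPM or more, where all of these markers lie, 3015 of 7795 tested genes did. The summed level of the round spermatid markers was 2057 and 2102 CPM in KO and 1961 and 1712 in WT. Of 9 spermatogonial and 9 spermatocyte markers, 7 in each list had both KO libraries below both WT libraries, beside 27.9% of all tested genes, with sums of 79.0 and 74.0 CPM in KO and 88.7 and 115 in WT for spermatogonia, and 858 and 805 in KO and 1088 and 1371 in WT for spermatocytes. Of the spermatogonial markers Id4 fell in KO, at -1.05 ± 0.15 on the log2 scale and an edgeR-adjusted p just under 0.05, a call that ended without either KO library, with each of the other scalings, with limma-voom and with the filter of 1 CPM. Of the spermatocyte markers Piwil1 fell, at -1.61 ± 0.10 (adjusted p = 0.00713, edgeR). Sums of Leydig cell markers were 11.1 and 10.8 CPM in KO and 22.6 and 14.2 in WT, with none of the 9 at 0 in any library, and those of Sertoli cell markers, where Fshr had 0 counts in KO replicate 1, were 11.5 and 12.6 CPM in KO and 18.4 and 10.7 in WT.

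The sums of the remaining lists overlapped between genotypes, as did those of Sertoli cell markers. Sums of elongating spermatid markers were 6892 and 10194 CPM in KO and 12953 and 5217 in WT. Macrophage markers summed to 31.6 and 18.8 CPM in KO and 22.8 and 7.01 in WT, with WT replicate 2 far below the rest, and peritubular and vascular markers to 60.1 and 36.6 CPM in KO and 38.6 and 33.6 in WT. The part that the proportions of cells played in the sterol values was not tested, and in whole testis fewer cells of a type and less RNA per cell cannot be told apart. The squalene to cholesterol stretch summed to 1101 and 1097 CPM in KO and 942 and 902 in WT. As a ratio between replicates, this was a narrower spread within each genotype than any of these marker lists had. Fdft1 alone gave 745 and 736 CPM of those sums in KO and 618 and 588 in WT. Of the 11 genes in the stretch, 3 had both KO libraries above both WT libraries, beside 29.4% of all tested genes. The other 8 overlapped between genotypes.

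**Figure D4:**
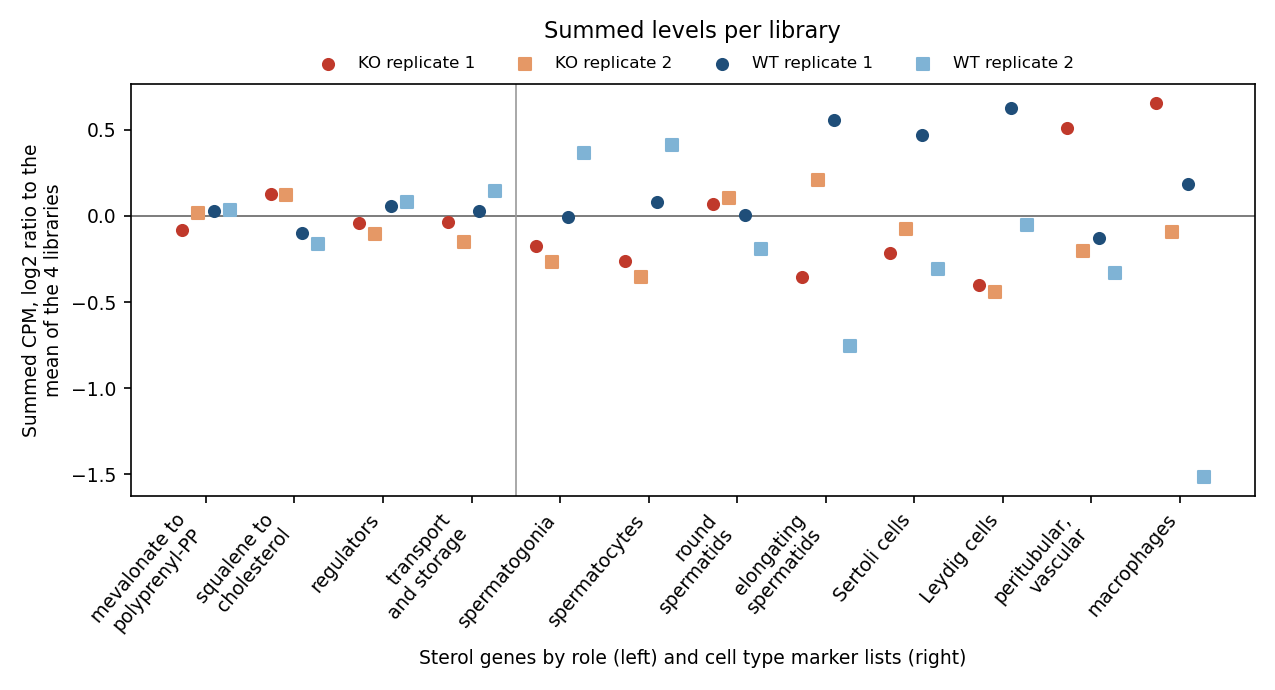
Summed CPM of the sterol genes by role (left of the line) and of each cell type marker list (right), as the log2 ratio to the mean of the 4 libraries, with KO left of WT. The sum of the squalene to cholesterol genes, most of it from Fdft1, lies on opposite sides of 0 by genotype. The sum of spermatocyte markers does so in the other direction, while elongating spermatid and macrophage markers vary most between replicates.

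Beyond the members, 60 further genes of the pathway were listed, for uptake, oxysterols, prenylation and SREBP processing, of which 54 could be tested. With edgeR 1 was lower and 0 were higher, beside the background of 0.454% in each direction. At an unadjusted p under 0.05, 4 had a positive and 11 a negative fold change, beside 11.8% and 12.8% of all tested genes, and the median of the 54 was -0.06. The gene that fell was Lbr, the lamin B receptor, a protein of the inner nuclear membrane that also carries the sterol reductase activity of Tm7sf2. Its RefSeq promoter window (GRCm38.p6, chr1:181842352-181842651, reverse strand) is shown with its 2 CCAAT matches in capitals.
Lbr: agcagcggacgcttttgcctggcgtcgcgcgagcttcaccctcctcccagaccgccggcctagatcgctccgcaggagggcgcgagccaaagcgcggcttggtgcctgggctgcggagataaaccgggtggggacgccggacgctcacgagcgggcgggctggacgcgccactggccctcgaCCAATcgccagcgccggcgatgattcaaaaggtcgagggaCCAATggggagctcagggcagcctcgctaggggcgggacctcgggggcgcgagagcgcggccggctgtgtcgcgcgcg

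Lbr had 9.28 and 8.35 CPM in KO and 18.3 and 22.6 in WT, a log2 fold change of -1.22 ± 0.15 (SE; adjusted p = 0.0382, edgeR). KO and WT were well apart, and the gene was also called with limma-voom. Its annotated 3′ end overlaps that of Dnah14 on the opposite strand. Its adjusted p was 0.0502 with DESeq2 size factors and 0.0534 with total counts, and 0.162 and 0.306 without KO replicate 1 and without KO replicate 2. The genes next by p did not pass. Rnf145, for a ubiquitin ligase of the sterol-regulated degradation machinery, had 5.11 and 3.88 CPM in KO and 8.03 and 10.1 in WT, a log2 fold change of -1.02 ± 0.21 (adjusted p = 0.0907, edgeR). Acat1, the mitochondrial counterpart of Acat2, had 8.81 and 9.85 CPM in KO and 13.6 and 14.9 in WT, and Cyb5b, an electron carrier of the cytochrome b5 family, had 16.0 and 16.6 in KO and 22.7 and 29.5 in WT. Crem, the gene of the activator known to drive Cyp51 in spermatids, had 326 and 346 CPM in KO and 267 and 269 in WT. Its log2 fold change was 0.33 ± 0.08 (adjusted p = 0.105, edgeR). Totals per gene cannot tell the activator form from other transcripts of Crem, and a link to the level of Cyp51 was not tested.

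The count of members called by edgeR moved most without WT replicate 1. It then called 6, Fdft1, Cyp51 and Npc2 higher and Mvd, Stard4 and Abca1 lower, while 21.2% of all tested genes were called in that fit, which takes the spread from the KO pair, so the members' share was close to the background. With each of the other 3 libraries left out in turn it called 0.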

How the data were processed

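Poly(A) RNA of adult testis was measured in 2 KO and 2 WT libraries. The authors deposited raw read counts per Ensembl gene. The tools named in the submitters' processing notes, with no roles, are HISAT2 2.1.0, RSEM, StringTie 1.3.1, fastp 0.18.0 and Bowtie2 2.2.8. No source used here gives the genome build, the annotation, the strandedness or the treatment of multiply matching reads.

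Genotype and replicate number in the column names gave each column its sample. GENCODE M21 (GRCm38) gave symbols for 22219 of 22274 genes, positions and exon lengths. Genes were kept by filterByExpr (minimum count 10, minimum total 15), libraries were scaled by TMM, and KO was compared with WT by edgeR 4.0.16 (R 4.3.3), two-sided, with Benjamini-Hochberg adjustment over all 15636 tested genes. Intervals are 95% and come from that fit. DESeq2 1.42.0 and limma 3.58.1 were alternatives. The test was also run on simulated counts in which every gene had the same spread beyond counting noise. That run therefore does not show how accurate the test is on these data. Replicates of a genotype differed beyond counting noise (chi-square per degree of freedom 10.4 in KO and 44.3 in WT).

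The members and lists were chosen with earlier results of these data known. Named were all members, Fam170a, other pathway genes past the threshold or with the smallest p up to 6, markers past the threshold (at most 2 a list), and genes that overlap or copy a member. A gene that this rule names is not reported here.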

Additional observations from a re-analysis of the deposited data

How the results depend on the processing

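Calls over the whole table depended on the setting. Against 142 genes called by edgeR there were 82 with total counts, 451 without a filter, 987 with DESeq2, 18 at a threshold of 0.01, and 21 to 3408 with 1 library left out, where the lone library is assumed to vary like the other genotype's pair. Of the sterol members, 0 were called under every alternative except DESeq2 (1), a crossed replicate block (1) and leaving out a library (0 to 6). Of the other pathway genes, against 1 called, 0 were with DESeq2 size factors, total counts or a threshold of 0.01, 3 without a filter, 6 with DESeq2, and 0 to 15 with 1 library left out.

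With the replicate number as a block, 9 genes, 0 members and 0 other pathway genes were called, and Lbr, Id4 and Piwil1 had adjusted p of 0.188, 0.217 and 0.0708 by edgeR. The labels do not say that numbers pair libraries, and the replicate differences of KO and WT correlated at -0.24 across genes. The crossed pairing, chosen after seeing the data, called 902 genes, 1 member and 4 other pathway genes.

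Some fold changes changed sign, and not only those near 0. Tm7sf2, Dhcr7 and Mvk did so from -0.40, -0.22 and 0.21 in the edgeR fit of all 4 libraries. Total counts lowered the median of all genes to -0.10 and gave -0.0797 for Idi1, -0.0116 for Nsdhl and -0.0102 for Sqle. Limma-voom gave 0.0874 for Pmvk, and no filter 0.0010 for Insig2. Leaving out libraries gave ranges of -0.0545 to 0.42 for Mvk, -0.63 to 0.60 for Pmvk, -0.11 to 0.12 for Idi1, -0.29 to 0.0682 for Fdps, -0.0740 to 0.33 for Lss, -1.04 to 0.85 for Tm7sf2, -0.35 to 0.16 for Msmo1, -0.0666 to 0.20 for Nsdhl, -0.19 to 0.12 for Hsd17b7, -0.48 to 0.0021 for Dhcr7 and -0.10 to 0.0341 for Insig2. The causes were not tested. Tm7sf2 and Ebp fell under the filter of 1 CPM and got no value there. Fdft1, Cyp51, Npc2, Mvd, Scap and Abca1 kept their sign under all of these alternatives. Depth limits Ebp and Tm7sf2 most.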

Other observations

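Some members varied more between replicates of a genotype than any member did between genotypes. Ebp had 0.146 and 0.689 CPM in the KO libraries, a gap of 2.24 on the log2 scale, and Tm7sf2 had 0.230 and 0.837 CPM in the WT libraries, a gap of 1.86. Pmvk, which is better expressed, had 165 and 100 counts in the WT libraries although the second was the deeper library, a gap of 1.28 in CPM on the log2 scale. The replicate gap of at least 1 genotype exceeded the fold change in 17 of the 29 sterol members, and in 54.8% of all tested genes. Insig2 was the steadiest member in KO, with 41.8 and 41.7 CPM, and Srebf2 the steadiest in WT, with 32.6 and 32.7 CPM.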
